A study of Mus musculus with 38 samples.

Results

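Keratins of stressed and of simple epithelia were followed by 2 histone marks while SOX9, a transcription factor of hair follicle stem cells, was induced in mouse epidermal stem cells (EpdSCs), which normally lack it. The 10 genes were *Krt6a*, *Krt6b*, *Krt16* and *Krt17* (wound and stress keratins), *Krt7*, *Krt8*, *Krt18* and *Krt19* (keratins of simple epithelia), *Krt79* (hair canal) and *Krt75* (companion layer of the hair follicle), out of 21938 protein-coding genes of the GENCODE annotation. Each gene was taken by name, and its window was the gene body (mm10) with 10 kb on both sides. Called intervals that overlapped a window by at least 1 bp were counted for that gene. Skin EpdSCs were sorted from the back skin of male K14rtTA; TRE-myc-Sox9 mice, in which the *Krt14* promoter drives rtTA in skin epithelium and doxycycline (DOX), injected at P21 and then fed, induces MYC-tagged SOX9. D0 cells carried the same alleles and were not induced. Induction had lasted 1, 2, 6 or 12 weeks in W1, W2, W6 and W12 cells, and those of W12 came from P0 back skin grafted onto immunocompromised Nude females, so that at W12 time and grafting cannot be told apart. The sort kept cells negative for CD31, CD45, CD117, CD140a and CD34, high for CD49f and high for Ly6A. Culture data came from primary *Krt14-rtTA* EpdSCs of newborn pups, transduced with lentiviral MYC-tagged wild-type SOX9 (WT-SOX9) or 1 of 2 deletion variants, ΔHMG-SOX9 without the DNA-binding HMG domain and ΔTA-SOX9 without the transactivation domain. These cultures were treated with DOX, and WT-SOX9 without DOX was the control.

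Keratins form the intermediate filaments of epithelial cells, and each filament pairs a type I with a type II keratin. KRT6A and KRT6B are type II partners of the type I keratins KRT16 and KRT17, are low in resting epidermis between hair follicles, and are switched on in wounds, in hyperproliferation and in parts of the hair follicle. KRT8 and KRT18 are the first keratin pair of the embryo, and in skin they mark Merkel cells. KRT7 and KRT19 belong to simple and ductal epithelia, and KRT19 also marks the bulge, where hair follicle stem cells reside. H3K4me1 lies over primed and active enhancers and H3K27ac over active enhancers and promoters.

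The marks were read by MINT-ChIP, in which chromatin samples receive barcodes and are pooled ahead of immunoprecipitation. There were 12 H3K4me1, 12 H3K27ac and 12 total H3 samples of skin and 2 H3K4me1 samples of culture. Labels give every sample a high or a low MNase digest, and the 2 culture samples were 1 of each. Digests are not biological replicates, and they were not compared here. The values used here were 14 lists of called intervals, 1 per mark and condition, each of which pools its replicates. There is thus no spread between replicates, no difference between lists could be tested, and no p-value is given. A change in the share of cells that carry a mark cannot be told apart from a change within each cell. The H3K27ac lists held 29081 to 33985 peaks, the skin H3K4me1 lists 69439 to 87287 domains and the culture lists 110589 to 123338 intervals. Depth was judged from the background pileup of the H3K27ac lists, which was lowest at W1 (0.299) and highest at W6 (0.677). Pileup could be recomputed for 94.3% of peaks at W1 and 92.0% at W6. The smallest among these was 3 stacked reads at W1 and 5 at W6. The depth of H3K4me1 is unknown, and where a list lacks an interval, none was detectable at its depth. The W12 list stood apart: 73.9% of its H3K27ac peaks lay in an H3K4me1 domain of the same time, against 94.1 to 97.4% in the other 4 lists. Its H3K27ac peaks were also the narrowest, with a median width of 476 bp, against 635, 642, 821 and 715 bp from D0 to W6. All 5 basal markers (*Krt5*, *Krt14*, *Itga6*, *Trp63*, *Ly6a*) had an H3K27ac peak in every list, and none of 6 Merkel cell markers had one in any. The number of fibroblast markers with a peak was 0, 2, 1, 1 and 3 of 3 from D0 to W12, and of leukocyte markers 1, 0, 0, 1 and 2 of 4. Of the bulge markers *Cd34*, *Lgr5* and *Lhx2*, 0, 0, 3, 0 and 2 of 3 had one, with a summed covered share of 0, 0, 9.16, 0 and 2.92%, although the sort took CD34-negative cells. For endothelial markers the counts were 1, 1, 1, 1 and 2 of 2, for melanocyte markers 1, 2, 1, 1 and 2 of 3 and for sebaceous markers 2, 2, 2, 2 and 3 of 3, and *Cdh5* and *Pparg* had no peak before W12. The part of these cells in the results was not tested.

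The keratin windows were richer in both marks than those of the median gene, and the 10 genes did not move together. The median share of the window under H3K27ac peaks was 2.45, 2.48, 6.29, 4.21 and 1.96% in the order D0, W1, W2, W6 and W12. Over all genes it was 1.14, 1.09, 1.22, 1.47 and 0.836%. For H3K4me1 the keratin median was 52.5, 45.9, 62.6, 53.3 and 42.4% over the same times, against 14.95 to 18.5% over all genes. The heat map of covered shares shows that the range among the 10 genes was far wider than these shifts, from *Krt18* with no H3K27ac peak at any time to *Krt17* with 37.3% at W6. The windows of *Krt6a* and *Krt6b* share 10378 bases and those of *Krt16* and *Krt17* share 12686, so that each pair counts some intervals in common. Keratin genes are short, 2812 to 19271 bp here against a median of 17425 bp, and among the 11573 genes no longer than the longest of them the H3K27ac medians were 0 except for 1.22% at W6.

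**Figure D1:**
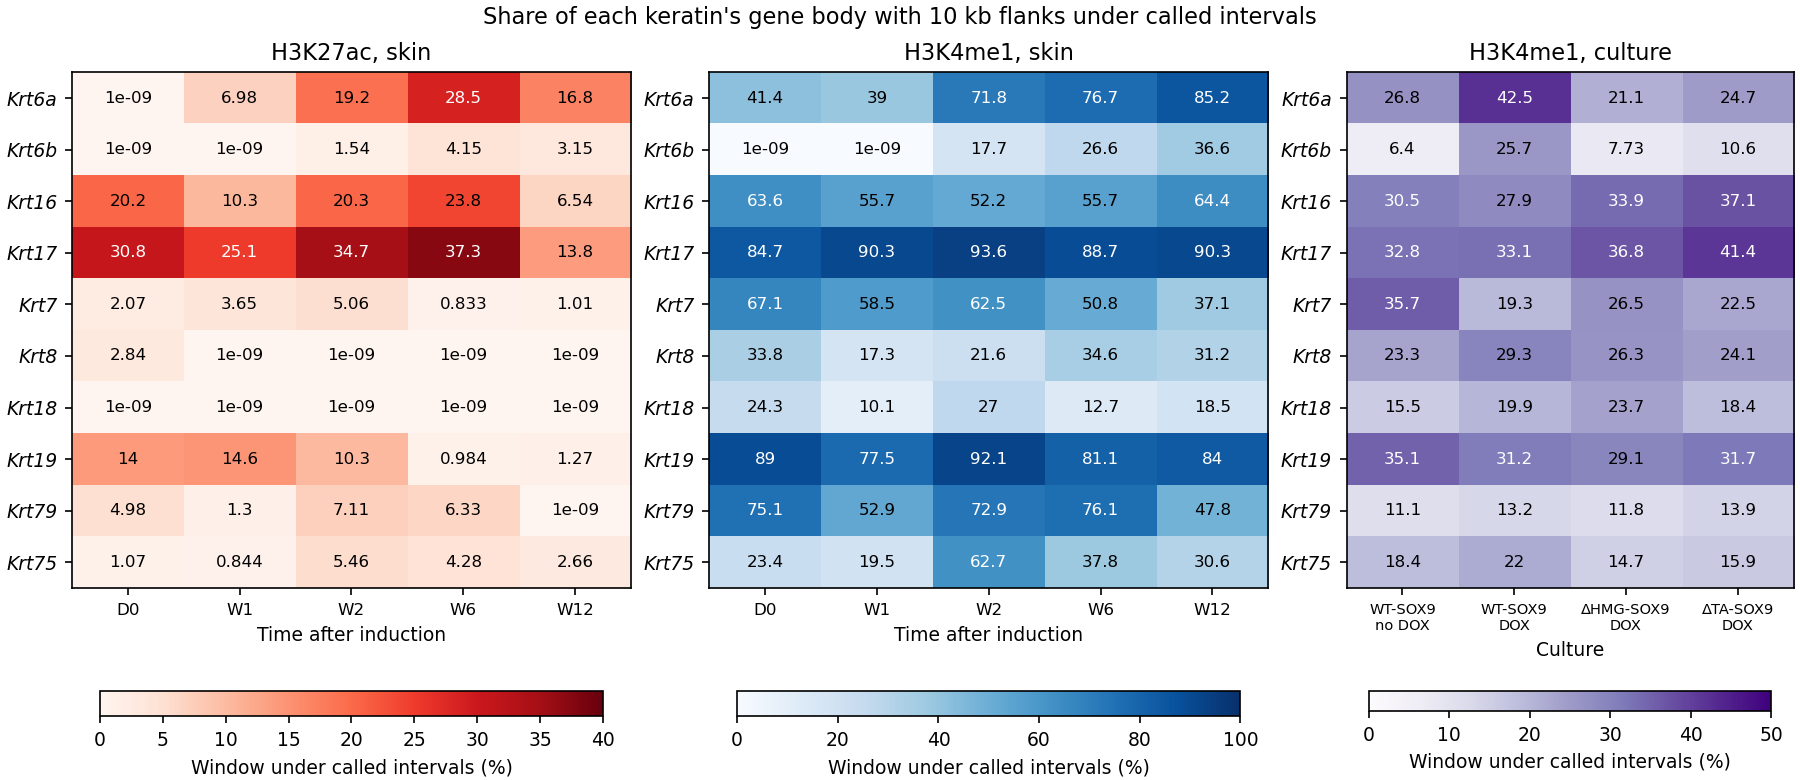
Heat maps of the percentage of each keratin's window (gene body with 10 kb flanks, rows) under called intervals in each pooled list (columns), for H3K27ac and H3K4me1 in skin and H3K4me1 in culture, each panel with its own colour scale. *Krt6a* goes from 0 to 28.5% under H3K27ac between D0 and W6, *Krt17* is the most covered gene from D0 to W6, and *Krt18* is empty throughout.

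Counts of genes with an H3K27ac peak anywhere in the window were near those of the genome. At D0 7 of 10 had one (58.7% of all genes), at W1 7 (58.5%), at W2 8 (58.0%), at W6 8 (60.5%) and 7 in the W12 list (59.1%). Among the genes no longer than *Krt7*, the longest of the 10, the shares were 47.2 to 51.6%. A peak over the start site itself was rarer. At D0 2 of 10 had one, *Krt16* and *Krt17* (30.5% of all genes), and at W1 only *Krt17* did (27.1%). At W2 it was *Krt6a* and *Krt17*, 2 of 10 (33.0%), at W6 *Krt6a*, *Krt17* and *Krt79*, 3 of 10 (37.6%), and at W12 *Krt17* alone (18.0%). With 10 genes, counts that differ by 1 or 2 from the share of all genes set nothing apart. H3K4me1 domains covered 7, 7, 9, 8 and 9 of the 10 start sites from D0 to W12. The shares of all genes were lower in each list, 49.2, 46.1, 52.6, 52.3 and 44.1% in the same order. Among the genes no longer than *Krt7* they were 45.8, 43.1, 47.4, 47.8 and 40.8%. The limit of 10 genes holds here too, and these differences were not tested.

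Gained and lost H3K27ac peaks were counted against D0. A peak that overlapped none at D0 (a gained peak) stood in 6 windows at W1 (28.1% of all genes), 5 at W2 (24.1%), 6 at W6 (27.4%) and 6 at W12 (36.1%). A D0 peak that overlapped none later (a lost peak) stood in 6 windows at W1 (27.6%), in 4 at W2 (26.5%), in 5 at W6 (22.9%) and in 6 at W12 (36.8%). The 4 comparisons share the D0 list, and peaks between *Krt6a* and *Krt6b* or between *Krt17* and *Krt16* count for both genes. *Krt6a* had gained peaks in all 4 later lists, and *Krt16*, *Krt17*, *Krt8* and *Krt19* lost peaks in all 4. A lasting gain, a peak at W2 that was absent at D0 and that W6 and W12 also overlapped, was found at 1 of 10 genes, *Krt6a* (5.44% of all genes). A lasting loss, a D0 peak that every later list lacked, was found at 4, *Krt16*, *Krt17*, *Krt8* and *Krt19* (15.6%). Among the genes no longer than *Krt7*, 2.77% had a lasting gain and 8.64% a lasting loss. How intervals were assigned changed the number of lasting losses from 1 to 7, and *Krt16* was among them under all 8 alternatives, as *Krt6a* was among the lasting gains.

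*Krt6a* (ENSMUSG00000058354, chr15:101689910-101694307, minus strand) had, with 10 kb flanks, the largest increase of H3K27ac share of the 10 genes at each time. From D0 to W12 its window held 0, 3, 3, 4 and 6 peaks, which covered 0, 6.98, 19.2, 28.5 and 16.8% of it. The nearest D0 peak lay 13946 bp from the start site, at *Krt5*, the basal keratin gene next to it, whose start site is 18591 bp away. At W1 the first peaks appeared upstream of the start site, at -796 to -311 bp, at -1669 to -1152 bp and at -4122 to -3425 bp, where negative values lie upstream and 0 is the start site. They were weak: their pileups were 6, 6 and 5 stacked reads and their fold over background was 5.39, 5.39 and 4.62, at or below the median peak of that list (5.39). At W2 a peak from -1874 to 662 bp reached over the start site with a fold of 9.82 and a pileup of 13. A further upstream peak from -5053 to -3287 bp had a fold of 10.5 and a pileup of 14, above 80.1% of the peaks of its list. Both were lasting gains, and neither has a counterpart in the D0 list. At W6 the peak over the start site ran from -1975 to 2153 bp with a fold of 12.5 and a pileup of 20, and the upstream one had a fold of 7.16. At W12 the signal was broken into 6 smaller peaks, the strongest from -1517 to -312 bp with a fold of 9.21 and a pileup of 12, and none lay over the start site. Peaks were narrower in the whole W12 list (median 476 bp, against 715 bp at W6), and the part of this in the break-up was not tested.

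The 300 bases around the W2 summits of both lasting gains are given below from the plus strand of mm10, opposite to the direction of transcription. The 20 bases centred on the summit are in capitals. Both stretches lie between *Krt5* and *Krt6a*, outside any annotated gene. Both summits lay under a W6 peak, and neither lay under a W12 peak. The upstream gain was overlapped by a W6 peak from -3936 to -2395 bp and a W12 peak from -4614 to -4280 bp. These do not overlap each other.
Krt6a W2 peak, summit 3850 bp upstream, chr15:101698007-101698306: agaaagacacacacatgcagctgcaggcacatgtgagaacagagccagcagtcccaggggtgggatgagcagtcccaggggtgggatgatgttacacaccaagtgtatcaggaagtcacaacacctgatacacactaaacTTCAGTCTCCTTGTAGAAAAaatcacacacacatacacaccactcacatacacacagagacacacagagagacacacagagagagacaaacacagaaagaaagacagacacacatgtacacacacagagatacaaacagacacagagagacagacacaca
Krt6a W2 peak, summit 1563 bp upstream, chr15:101695720-101696019: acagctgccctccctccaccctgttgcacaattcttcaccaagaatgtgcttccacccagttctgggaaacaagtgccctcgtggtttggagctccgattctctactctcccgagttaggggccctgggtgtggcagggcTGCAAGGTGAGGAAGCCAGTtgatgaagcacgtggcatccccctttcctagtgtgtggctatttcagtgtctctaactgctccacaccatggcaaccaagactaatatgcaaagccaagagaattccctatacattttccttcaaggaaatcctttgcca
The more distant stretch is rich in repeats of the letters CA, and the nearer one is not. Neither window holds any of the 4 motifs searched (named with the promoters further on). The whole peaks do: that from -1874 to 662 bp holds 1 SOX, 1 AP1 and 3 RUNX matches, and that from -5053 to -3287 bp holds 2 SOX, 1 RUNX and 1 GATA match.

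**Figure D2:**
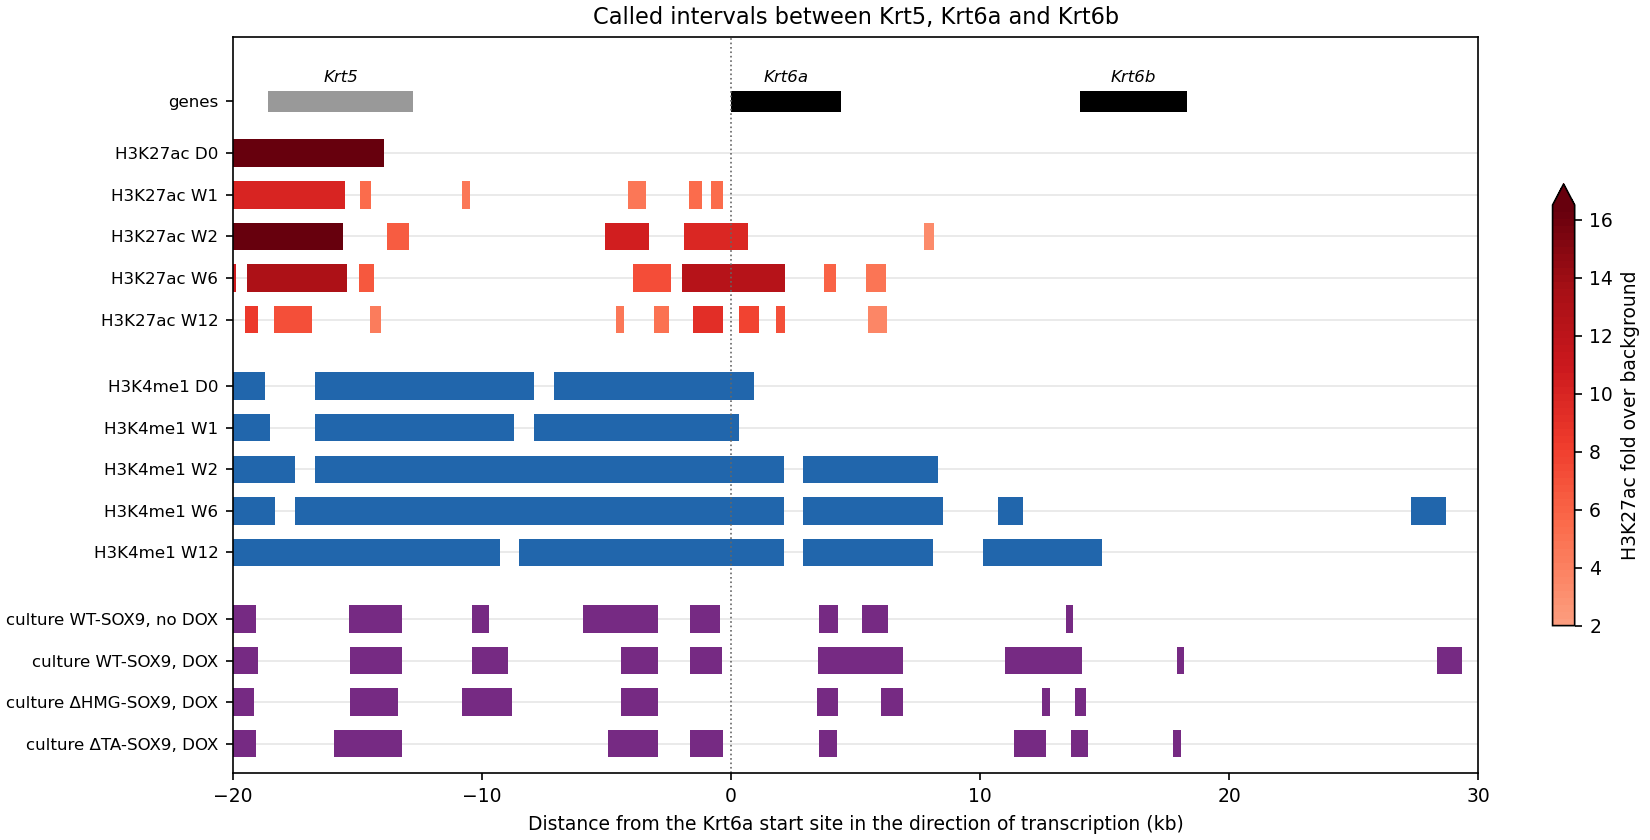
Map of called intervals around *Krt6a*, with distance from its start site in kb along the direction of transcription on the horizontal axis and 1 row per pooled list. H3K27ac peaks are shaded by fold over background, H3K4me1 domains are blue in skin and purple in culture, genes are bars at the top, and the D0 row of H3K27ac is empty from 13946 bp upstream of the start site onwards while the later rows hold peaks around it.

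Ranks of this increase were computed with 10 kb flanks and under 5 other settings: no flank, 5 kb or 50 kb flanks, intervals above the median score, and intervals under 1000 bp apart joined. At W1 253 of 21938 genes had a larger increase over D0 than *Krt6a* in the H3K27ac share, at W2 17 and at W6 4. Without flanks the W1 change was 0, with no peak in the gene body, and 320 and 33 genes were ahead at W2 and W6. With 50 kb flanks 2238, 103 and 218 genes were ahead from W1 to W6, and with the other 3 settings 117 to 632, 7 to 32 and 1 to 13. At W12 no gene had a larger one with flanks of 10 kb or 5 kb or with intervals joined, and 30 had with the gene body alone, 25 with intervals above the median score and 1560 with flanks of 50 kb, which reach the peaks of *Krt5*. H3K4me1 was present before induction, and then grew. A D0 domain from -7093 to 906 bp already held the sites of the upstream H3K27ac peaks. At W2 it had fused with the one upstream into a domain from -16693 to 2106 bp, and a second domain from 2907 to 8306 bp had appeared over the end of the gene and beyond it. The H3K4me1 share of the window was 41.4, 39.0, 71.8, 76.7 and 85.2% from D0 to W12, and 1 gene of 21938 had a larger increase at W12 (1 to 149 under the 5 other settings). Reads in the gene body may be shared: 43.8% of its 32-base words occur more than once in the genome and 40.1% occur in *Krt6b*. In the upstream peaks the repeated share was at most 0.691%, in the peak over the start site it was 18.0% at W2 and 27.9% at W6, in the W12 peaks inside the gene it was 60.4 and 51.3%, and the part of repeated sequence in the calls was not tested.

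*Krt6b* (ENSMUSG00000023041, chr15:101676023-101680287, minus strand), the close copy of *Krt6a* 14020 bp downstream of its start site, had no peak over its own start site at any time. From D0 to W12 it had 0, 0, 1, 2 and 1 peaks in its window, and 0, 0, 1.54, 4.15 and 3.15% was covered. Each of these peaks lay between both genes or at the 3′ end of *Krt6a*, and all are also counted in the *Krt6a* window. Their folds were 3.23 at W2, 4.77 and 5.90 at W6 and 3.54 at W12, all below the median of their list. H3K4me1 first appeared in the same list and, by W12, had reached the start site. The *Krt6b* window had no domain at D0 and W1, and 17.7, 26.6 and 36.6% lay under domains at W2, W6 and W12. The distance from the start site to the nearest domain was 13114 bp at D0, 5714 bp at W2 and 2314 bp at W6, and at W12 a domain from -3913 to 886 bp lay over it. By increase of the H3K4me1 share, 14 of 21938 genes were ahead of *Krt6b* at W12, and 16 to 552 under the 5 other settings. Within the gene body itself the share did not differ from D0 at W2 and W6 and was 20.8 points higher at W12. Repeated words make up 48.8% of its body.

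*Krt17* (ENSMUSG00000035557, chr11:100256217-100261029, minus strand) was the only one of the 10 with a peak over its start site in all 5 lists. The fold of that peak was 11.995, 10.01, 14.7, 16.7 and 7.79 from D0 to W12, with pileups of 17, 12, 20, 27 and 10. It was longest at W6, when a single peak of 8914 bp ran from -1693 to 7220 bp and took in the whole gene, and shortest at W12, from -396 to 1051 bp. The map of *Krt17* and *Krt16* shows this merging and the later break-up, in a W12 list whose peaks were narrower as a whole. The covered share of the window was 30.8, 25.1, 34.7, 37.3 and 13.8% from D0 to W12, and 98 of 21938 genes had a larger decrease at W12 (82 to 662 under the 5 other settings). A D0 peak in an intron of the neighbouring *Krt42*, from -8014 to -7486 bp with a fold of 5.998, was found in no later list. H3K4me1 covered 84.7 to 93.6% of the window at every time.

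*Krt16* (ENSMUSG00000053797, chr11:100246091-100248902, minus strand), 12127 bp downstream of the *Krt17* start site, lost the peak over its own start site. At D0 a peak from -113 to 979 bp stood there with a fold of 7.997 and a pileup of 11, above 63.8% of the peaks of its list, and no later list overlapped it. A second D0 peak at the end of the gene, from 2492 to 3231 bp with a fold of 4.26, was likewise found at D0 alone. Peaks returned near the start site at W6 and W12 at other places, from -967 to -631 bp (fold 5.37) and from -947 to -521 bp (fold 5.67). The share of the window under H3K27ac was 20.2, 10.3, 20.3, 23.8 and 6.54%, and nearly all of these peaks also lie in the *Krt17* window. Repeated words make up 42.9% of the *Krt16* body, 37.3% of the lost start-site peak and 49.0 and 63.6% of the W6 and W12 peaks, and their part in the calls was not tested. H3K4me1 covered the start site in all 5 skin lists.

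Between both genes, 5743 bp downstream of the *Krt17* start site and -6384 bp from that of *Krt16*, a peak was called at every time. Its fold was 9.996 at D0 (pileup 14), 6.16 at W1 (7), 9.12 at W2 (12) and 10.6 at W12 (14), and at W6 it was part of the long *Krt17* peak. At W12 it was the strongest peak of either window. The 300 bases around the W12 summit, from the plus strand with the central 20 in capitals, show the strongest place of the locus at W12, when this peak, too, was shorter (613 bp, against 1377 bp at D0 and 1921 bp at W2). The median peak of the whole list was likewise shorter at W12, 476 bp against 635 bp at D0 and 821 bp at W2.
Peak between Krt17 and Krt16 at W12, chr11:100255136-100255435: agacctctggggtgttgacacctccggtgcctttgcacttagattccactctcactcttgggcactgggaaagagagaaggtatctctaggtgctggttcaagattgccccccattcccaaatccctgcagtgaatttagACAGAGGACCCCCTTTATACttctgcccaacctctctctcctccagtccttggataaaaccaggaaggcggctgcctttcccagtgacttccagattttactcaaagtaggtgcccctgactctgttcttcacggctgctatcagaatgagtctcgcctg
No match to the 4 motifs lies in this window. Of the W12 peak, 0% was repeated sequence.

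**Figure D3:**
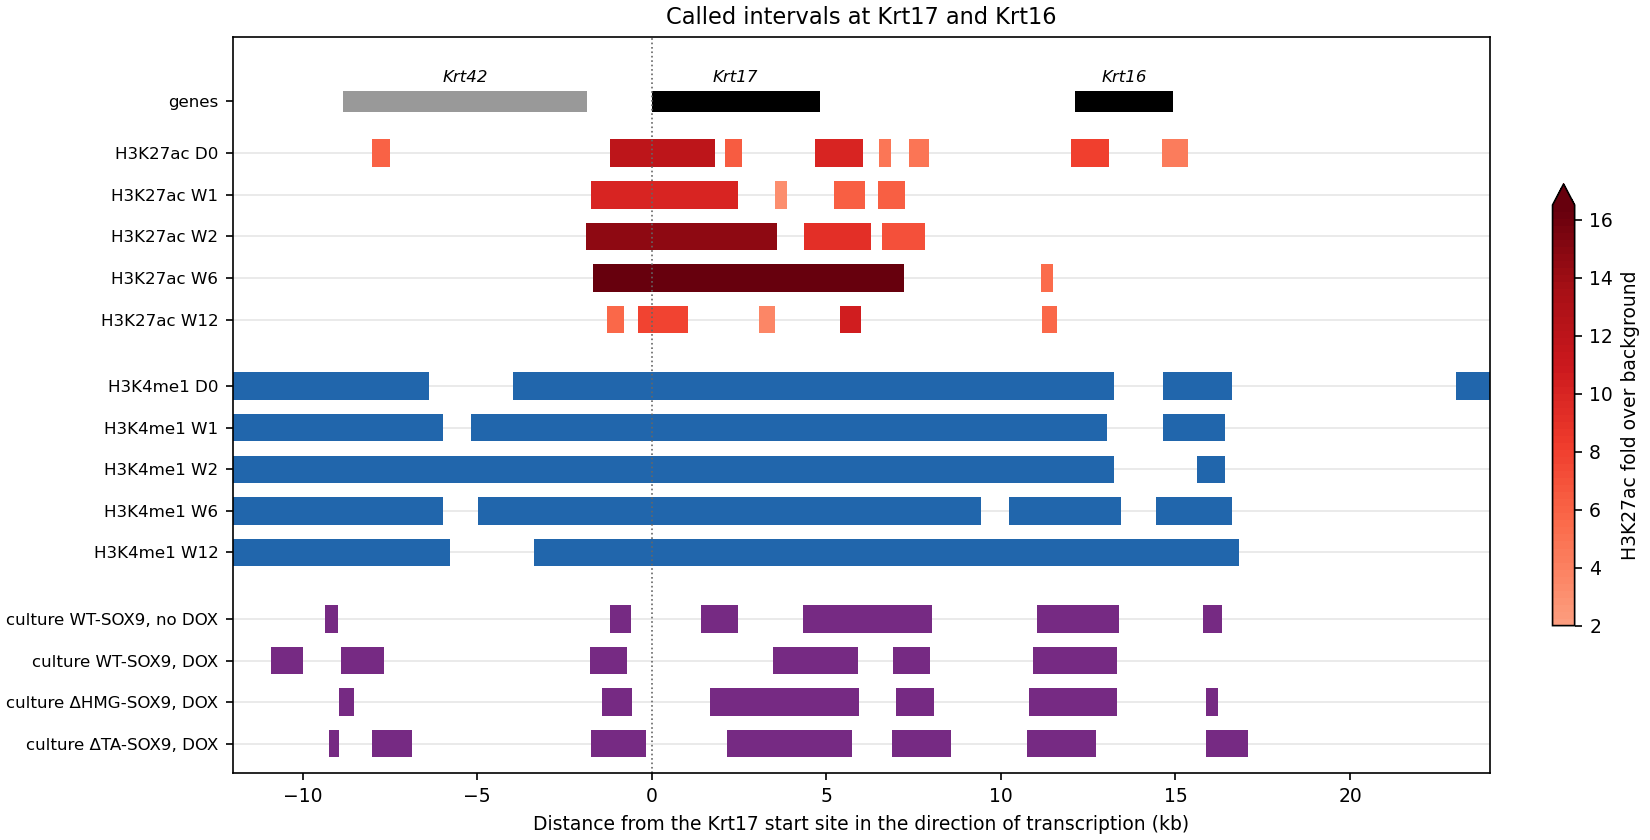
Map of called intervals at *Krt17* and *Krt16*, drawn as for *Krt6a* with distance from the *Krt17* start site in kb along the direction of transcription. The start-site peak of *Krt17* is present in every H3K27ac row and is longest at W6, and the 2 D0 peaks at *Krt16* are missing from the later rows.

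*Krt8* (ENSMUSG00000049382, chr15:101996698-102004482, minus strand) and *Krt18* (ENSMUSG00000023043, chr15:102028180-102032027, plus strand), partners in simple epithelia whose start sites lie 23698 bp apart, were nearly free of H3K27ac. *Krt18* had no peak in its window in any list, and the nearest peak to its start site was 22800 to 45699 bp away. *Krt8* had 2 peaks at D0, from -898 to -394 bp (fold 5.33, pileup 7) and from 16376 to 16658 bp (fold 3.998, pileup 5), and 0 at W1, W2, W6 and W12. Both D0 folds were below the median peak of that list, 5.998. Both start sites nevertheless lay under an H3K4me1 domain in all 5 skin lists. The H3K4me1 share was 33.8, 17.3, 21.6, 34.6 and 31.3% for *Krt8* and 24.3, 10.1, 26.95, 12.7 and 18.5% for *Krt18*. The 6 Merkel cell markers had H3K27ac in none of 6 windows at any time and H3K4me1 in 6 of 6 at D0, W2, W6 and W12 and 5 of 6 at W1. H3K4me1 without H3K27ac is not particular to such genes. Over all genes 76.9 to 79.9% of windows held an H3K4me1 domain and 58.0 to 60.5% an H3K27ac peak. All 21 hair keratin windows held an H3K4me1 domain at every time. The *Krt8* peak lost after D0 is shown from the plus strand with the central 20 bases in capitals.
Krt8 D0 peak, summit 723 bp upstream, chr15:102005055-102005354: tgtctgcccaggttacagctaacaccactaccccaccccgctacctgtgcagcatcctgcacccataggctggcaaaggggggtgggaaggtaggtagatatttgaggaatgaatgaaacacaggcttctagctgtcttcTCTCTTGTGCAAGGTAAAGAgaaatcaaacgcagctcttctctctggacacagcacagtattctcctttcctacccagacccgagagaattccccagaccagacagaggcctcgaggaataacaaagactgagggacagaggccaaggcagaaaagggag

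*Krt7* (ENSMUSG00000023039, chr15:101411043-101430313, plus strand) had 1 constant peak, more than 8 kb upstream of its start site. Its fold was 11.3, 8.47, 14.7, 7.16 and 9.21 over the 5 times, above the median of each list. It was no wider than 1484 bp, and the covered share of the window stayed at 2.07, 3.65, 5.06, 0.833 and 1.01%. No H3K27ac peak lay over the start site. H3K4me1, in contrast, was lower late: 67.1, 58.5, 62.5, 50.8 and 37.1% of the window, with a domain over the start site in every list but W12, when the nearest was 2043 bp away. This is the GENCODE start, and the RefSeq start of *Krt7* lies 1360 bp downstream of it. At W12 151 of 21938 genes had a larger decrease (120 to 1246 under the 5 other settings). The upstream peak is shown because it was called at every time. The stretch is rich in runs of C and T.
Krt7 W2 peak, summit 8224 bp upstream, chr15:101402669-101402968: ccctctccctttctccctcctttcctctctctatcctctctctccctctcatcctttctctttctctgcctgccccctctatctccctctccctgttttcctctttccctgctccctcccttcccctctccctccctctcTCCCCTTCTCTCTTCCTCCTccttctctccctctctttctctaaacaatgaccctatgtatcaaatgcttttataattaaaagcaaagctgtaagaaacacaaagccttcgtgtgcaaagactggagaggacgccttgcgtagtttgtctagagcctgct

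*Krt19* (ENSMUSG00000020911, chr11:100140810-100148665, minus strand) took its H3K27ac share from its neighbour. The 3 D0 peaks, 2 at W1, 3 at W2 and 1 at W6 all lay 11447 to 16938 bp downstream of its start site and nearest to that of *Krt15*, a keratin of basal and bulge cells 12737 bp away. The share was 13.99, 14.6, 10.3, 0.984 and 1.27% from D0 to W12, and 38 of 21938 genes had a larger decrease at W6, against 36 to 607 under 4 other settings and no change of share without flanks. *Krt15* itself went from 17.7% at D0 to 1.13% at W6 and 0 at W12. The sole W12 peak in the *Krt19* window was upstream, from -8264 to -7912 bp, with a fold of 4.25. Counting each interval only for the nearest start site removed *Krt19* from the lasting losses. H3K4me1 covered 77.5 to 92.1% of the window, with a domain over the start site at W2 and W12 only.

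*Krt79* (ENSMUSG00000061397, chr15:101929332-101940324, minus strand) had its strongest peaks at W2 and W6 and none at W12. At D0 a weak peak lay in the gene from 38 to 1580 bp, with a fold of 3.33 and a pileup of 4. An upstream peak was weak at W1, from -1445 to -1042 bp with a fold of 3.85, stood at a fold of 10.5 and a pileup of 14 at W2, from -1845 to -452 bp, and at 5.96 at W6. At W6 a peak from 0 to 757 bp over the start site had a fold of 11.9 and a pileup of 19. The covered share was 4.98, 1.30, 7.11, 6.33 and 0%, and that of H3K4me1 was likewise lowest at W1 and W12 (75.1, 52.9, 72.9, 76.2 and 47.8%). Since W12 lacked the upstream peak, it is no lasting gain.
Krt79 W2 peak, summit 1259 bp upstream, chr15:101941433-101941732: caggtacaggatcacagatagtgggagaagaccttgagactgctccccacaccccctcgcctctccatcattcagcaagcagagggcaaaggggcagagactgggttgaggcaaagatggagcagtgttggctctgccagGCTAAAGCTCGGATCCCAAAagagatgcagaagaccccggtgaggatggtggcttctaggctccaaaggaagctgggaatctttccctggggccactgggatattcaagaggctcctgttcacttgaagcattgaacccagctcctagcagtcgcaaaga
This window, again from the plus strand with the central 20 bases in capitals, holds none of the 4 motifs.

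*Krt75* (ENSMUSG00000022986, chr15:101563345-101573904, minus strand) kept a peak at the outer edge of its upstream flank, at about 10 kb, in all 5 lists. The fold there was 5.77, 3.84, 6.32, 11.3 and 7.63 in order of time, and the W6 peak was the strongest. The peak nearest to the start site was weak, at W6 from -1984 to -1711 bp with a fold of 4.17 and a pileup of 6. H3K4me1 moved more than H3K27ac. It covered 23.4, 19.5, 62.7, 37.8 and 30.6% of the window from D0 to W12, and 31 of 21938 genes had a larger increase at W2 (27 to 232 under the 5 other settings). The 3 bulge markers ran alongside, with a median H3K4me1 share of 8.57, 6.73, 49.5, 19.8 and 25.9%, and the part of follicle cells in the *Krt75* values was not tested. A domain lay over the start site at W2, W6 and W12, and at D0 the nearest ended 97 bp before it.
The 300 bases around the W2 summit lie just beyond the edge of the window, which the peak itself overlaps.
Krt75 W2 peak, summit 10251 bp upstream, chr15:101584005-101584304: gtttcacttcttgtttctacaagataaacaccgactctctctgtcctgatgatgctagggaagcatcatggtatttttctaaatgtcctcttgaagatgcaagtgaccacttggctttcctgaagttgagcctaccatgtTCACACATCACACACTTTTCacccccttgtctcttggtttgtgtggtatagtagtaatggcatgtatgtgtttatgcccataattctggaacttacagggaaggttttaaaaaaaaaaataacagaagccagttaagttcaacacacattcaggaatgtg
This is the one printed peak with motif matches: a GATA match at position 22 from the left, a SOX match at 164 and a RUNX match at 182.

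**Figure D4:**
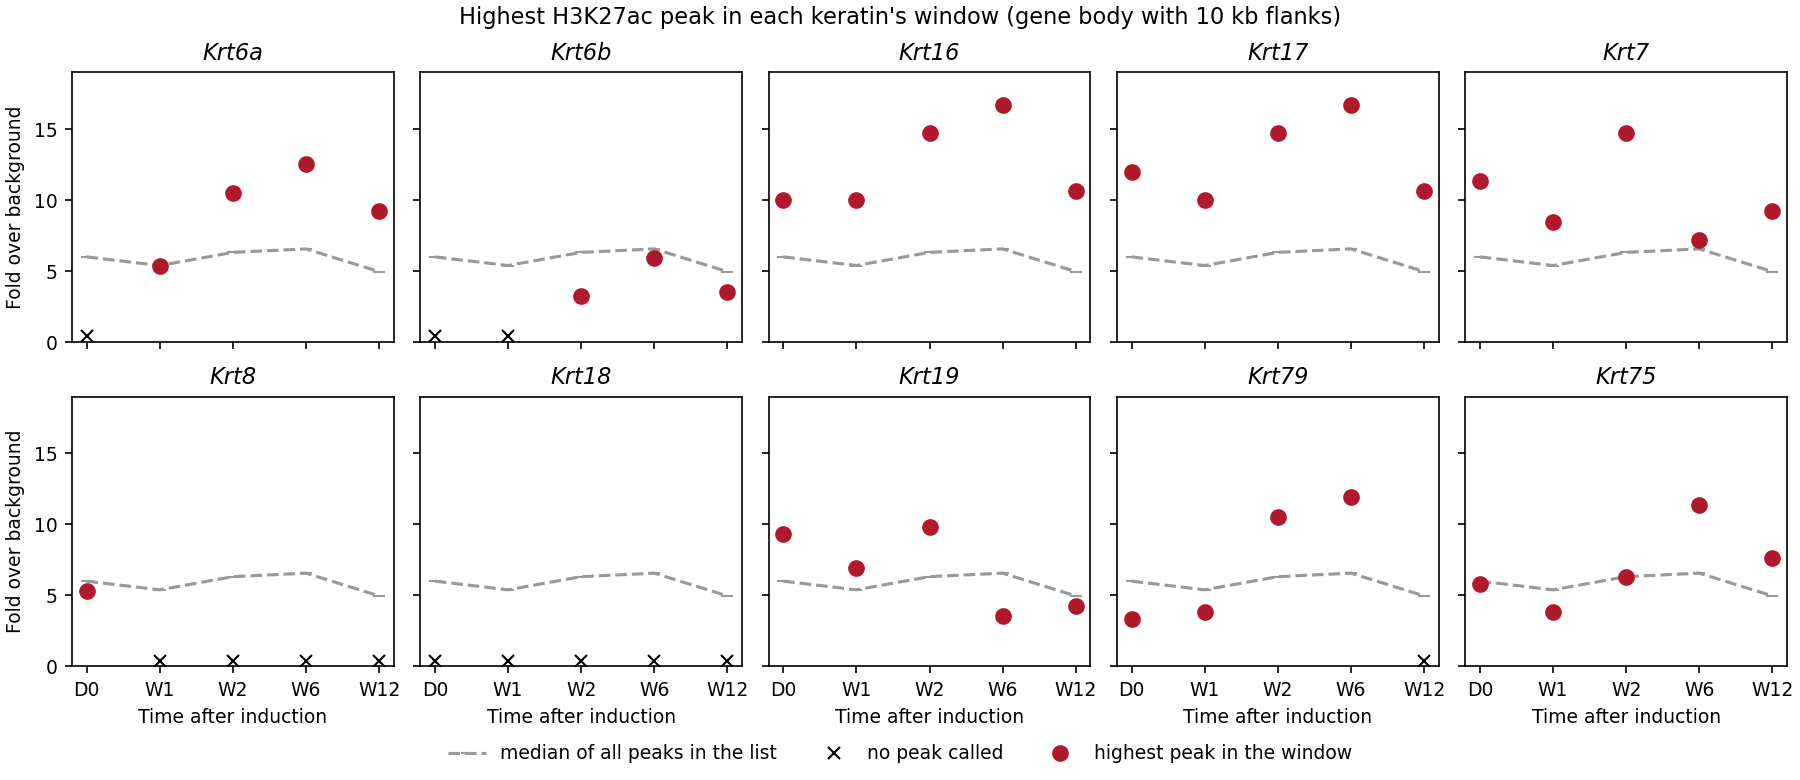
Highest fold over background of any H3K27ac peak in each keratin's window (points) at the 5 times, with the median fold of all peaks of the list as a dashed line and crosses where no peak was called. *Krt6a* lies above the median from W2 onwards, *Krt17* and *Krt7* lie above it at every time, and the highest peak in the *Krt16* window is at every time one that lies nearer to the *Krt17* start site.

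The places that gained H3K27ac were mostly marked by H3K4me1 before induction, as were those of gained peaks over the genome. The windows held 17, 13, 16, 14 and 15 distinct H3K27ac peaks from D0 to W12, and every one lay in an H3K4me1 domain of the same time. Of the peaks gained against D0, 7 of 7 at W1, 6 of 7 at W2, 6 of 8 at W6 and 8 of 10 at W12 lay in a D0 domain. Over all gained peaks the shares were 91.0, 89.3, 90.9 and 56.8%, so that the keratin windows did not stand out from W1 to W6. At W12 their share was higher, on 10 peaks. D0 domains covered a median of 52.5% of these windows. The gained peaks outside D0 domains all lay within *Krt6a* or between it and *Krt6b*, and in H3K4me1 domains of W2, W6 and W12.

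Gained and lost H3K4me1 domains were counted in the same way as H3K27ac peaks. A domain that overlapped none at D0 stood in the window of *Krt75* at W1 (1 of 10, against 9.9% of all genes), of *Krt6a*, *Krt6b* and *Krt18* at W2 (3 of 10, 21%), and of *Krt6a* and *Krt6b* at W6 (2 of 10, 24%) and at W12 (2 of 10, 21.4%). Lost D0 domains stood in 4 windows at W1 (44.2%), in 2 at W2 (47.0%), in 1 at W6 (38.2%) and in 3 at W12 (44.5%). Among the genes no longer than *Krt7*, the longest of the 10, these shares were lower, 3.66 to 12.6% for gains and 22 to 31.4% for losses. *Krt16* was among the genes with a lost domain at all 4 times. *Krt8* was at W1, W2 and W12 and *Krt7* at W1 and W12.

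In culture more of the *Krt6a* and *Krt6b* windows lay under H3K4me1 intervals with WT-SOX9 than in the other 3 lists. The *Krt6a* window was covered to 42.5% with WT-SOX9 and to 26.8% without DOX, and the deletion variants ΔHMG-SOX9 and ΔTA-SOX9 gave 21.1 and 24.7%. For *Krt6b*, in the order no DOX, WT, ΔHMG and ΔTA, the shares were 6.40, 25.7, 7.73 and 10.6%. The WT-SOX9 list thus stood 15.7 and 19.3 points above the control, with 58 and 15 of 21938 genes ahead, while both variants stayed within 6 points of it. These ranks depended on how intervals were assigned. For *Krt6a* the difference was 11.7 points with intervals joined (231 genes ahead), 7.88 with 50 kb flanks (170), 7.89 with 5 kb flanks (1360), 3.25 without flanks (4338) and 0.586 with intervals above the median score (7412). For *Krt6b* it lay between 6.45 and 21.8 points under these 5 settings, with 35 to 1979 genes ahead. The largest increases lay in 2 long intervals. The first, of 3430 bp, ran from 3478 to 6907 bp of the *Krt6a* start site, begins inside *Krt6a* and lies mostly in both windows. The second, of 3091 bp, ran from -3035 to 55 bp of the *Krt6b* start site and also lies in both windows. In the control the first place held intervals of 777 and 1015 bp and the second 1 of 248 bp. Upstream of *Krt6a*, at the place of its upstream H3K27ac gain, the interval was shorter with WT-SOX9. It ran from -4.434 to -2.926 kb, against -5.929 to -2.926 kb in the control, and it was also shorter with both variants. An interval touched the *Krt6b* start site in all 3 lists with DOX, and without DOX the nearest ended 308 bp before it. At the *Krt6a* start site no culture list had one.

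*Krt7* went the other way in all 3 lists with DOX. Its share was 35.7% without DOX and 19.3, 26.5 and 22.5% with the WT, ΔHMG and ΔTA forms. The decrease of 16.4 points with WT-SOX9 was exceeded by 8 of 21938 genes, that with ΔHMG-SOX9 by 182 and that with ΔTA-SOX9 by 55. *Krt7* was lower under the 5 other settings too, and the number of genes with a larger decrease was 2 to 545 for WT-SOX9, 45 to 576 for ΔHMG-SOX9 and 0 to 523 for ΔTA-SOX9. The interval over the start site was 3265 bp long without DOX and 1380 bp with WT-SOX9. *Krt16* and *Krt17* were covered most with ΔTA-SOX9, at 37.1 and 41.4% against 30.5 and 32.8% without DOX. The direction was not stable: for ΔTA-SOX9 *Krt16* differed from the control by -24.3 points without flanks and by -10.5 with intervals above the median score, and *Krt17* by -9.66 with the latter. For *Krt8*, *Krt18*, *Krt19*, *Krt79* and *Krt75* the differences from the control lay between -5.98 and 8.22 points. The strongest interval of any of the 10 windows in the WT-SOX9 list was in an intron of *Krt79*, with a fold of 6.04 against 5.18 without DOX. *Krt18* had an interval over its start site in all 4 lists, as had *Krt16* and *Krt7*.

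**Figure D5:**
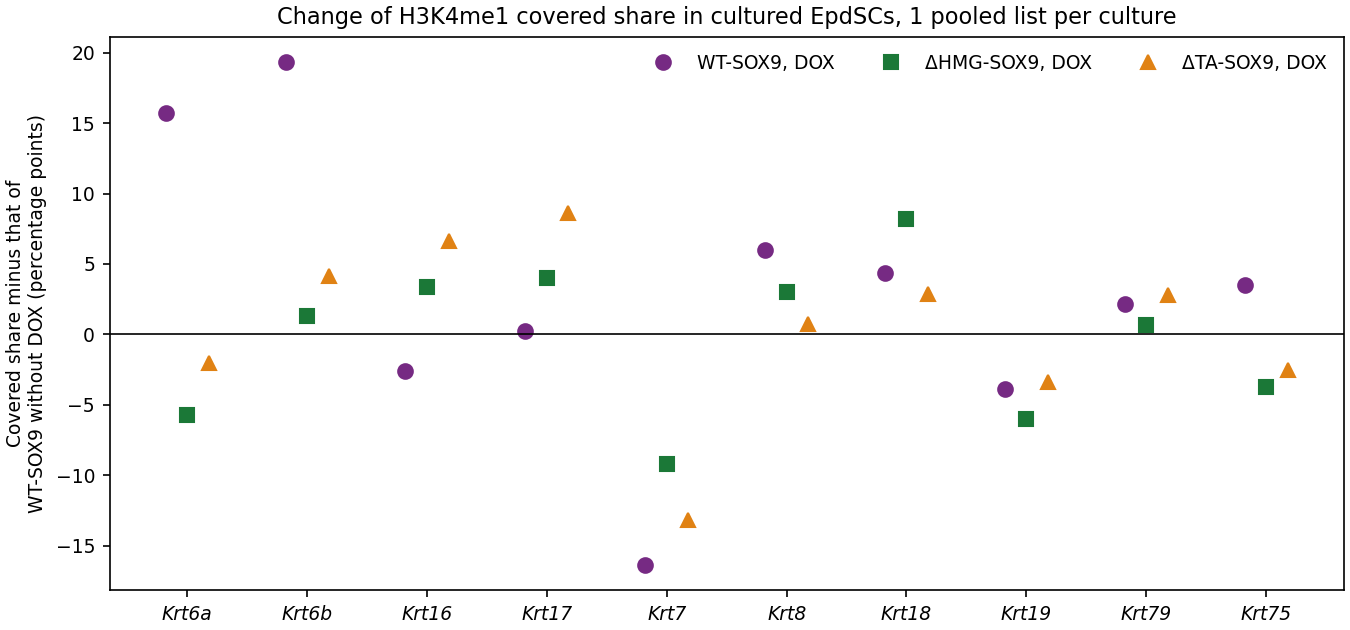
Change in the percentage of each keratin's window under H3K4me1 intervals in cultured EpdSCs, as the share with DOX minus the share of WT-SOX9 without DOX in percentage points, for the 3 SOX9 variants. The WT-SOX9 points of *Krt6a* and *Krt6b* stand at 15.7 and 19.3 points and all 3 points of *Krt7* lie below 0.

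Counts of gains and losses in culture stand here beside the shares of all genes and of short genes. With so few genes, small departures from these shares set nothing apart, and no difference was tested. Without flanks the counts were lower, as given further on. Against WT-SOX9 without DOX, 6 windows held a gained interval with WT-SOX9 (47.9% of all genes), 7 with ΔHMG-SOX9 (46.2%) and 6 with ΔTA-SOX9 (50%). Intervals of the control were lost from 7 windows for WT-SOX9 (47.5%), from 5 for ΔHMG-SOX9 (37.0%) and from 7 for ΔTA-SOX9 (41.1%). Among the genes no longer than *Krt7* the shares were 30.4, 30.3 and 33.3% for gains and 32.2, 23.9 and 27.7% for losses. The *Krt6a* window held no gained interval with WT-SOX9, since its wider intervals overlap those of the control. The 3 comparisons share the control list.

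RefSeq promoters, from 250 bases before to 30 bases after the start site on the strand of the gene, were at hand for 5 of the 10 genes, *Krt7*, *Krt8*, *Krt18*, *Krt79* and *Krt75*. *Krt6a*, *Krt6b*, *Krt16*, *Krt17* and *Krt19* were not matched. The RefSeq start lay 1360 bp downstream of the GENCODE start for *Krt7*, 140 bp for *Krt8* and 36 bp for *Krt18*. For *Krt79* and *Krt75* both were the same. Marks over start sites were read at the GENCODE start. Motifs were searched on both strands, with ACAANGG standing for SOX factors, TGANTCA for AP1, TGTGGT for RUNX factors, AGATAA for GATA factors and the letters TATAAA for a TATA box. They occur in 13.6, 7.81, 16.8, 11.2 and 13.6% of all 32851 promoters of the table, over the full 250 bases before to 50 after the start. The 3 promoters with a match are shown with the matched letters in capitals.
Krt8 promoter, chr15:102004313-102004592, minus strand: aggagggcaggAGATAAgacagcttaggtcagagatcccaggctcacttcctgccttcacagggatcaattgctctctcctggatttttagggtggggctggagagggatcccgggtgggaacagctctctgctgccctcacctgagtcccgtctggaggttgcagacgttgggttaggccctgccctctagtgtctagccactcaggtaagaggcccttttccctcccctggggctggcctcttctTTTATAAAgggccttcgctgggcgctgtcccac
Krt18 promoter, chr15:102027966-102028245, plus strand: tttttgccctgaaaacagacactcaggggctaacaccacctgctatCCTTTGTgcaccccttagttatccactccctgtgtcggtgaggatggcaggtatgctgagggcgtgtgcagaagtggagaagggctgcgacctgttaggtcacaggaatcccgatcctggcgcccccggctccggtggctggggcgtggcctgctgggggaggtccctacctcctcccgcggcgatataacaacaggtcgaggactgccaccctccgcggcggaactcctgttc
Krt79 promoter, chr15:101940295-101940574, minus strand: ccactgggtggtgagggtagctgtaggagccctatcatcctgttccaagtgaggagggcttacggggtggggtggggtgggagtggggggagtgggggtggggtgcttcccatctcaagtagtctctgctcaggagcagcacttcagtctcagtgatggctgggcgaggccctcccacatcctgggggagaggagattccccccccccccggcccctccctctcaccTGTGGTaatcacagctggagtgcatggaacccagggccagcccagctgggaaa
*Krt8* has a GATA match at position 12 and TATA matches on opposite strands at 248 and 250 that overlap each other. *Krt18* has a SOX match at position 47, read on the other strand, and *Krt79* a RUNX match at 228. Of these 3 start sites only that of *Krt79* lay under H3K27ac at any time, at W6.

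Motif matches in the H3K27ac peaks of the 10 genes rested on few peaks and moved both ways against all peaks. In the 300 bases around W2 summits, 2 of 16 keratin peaks held a SOX match (12.5%, against 14.3% of all W2 peaks), 2 an AP1 match (9.34% of all), 3 a RUNX match (18.0%) and 2 a GATA match (12.1%). Over whole peaks RUNX matches per kb were 0.744, 0.957, 0.97, 1.34 and 1.14 from D0 to W12, against 0.686 to 0.736 in all peaks. Peaks around *Krt17* and *Krt6a* make up much of this sequence and recur from list to list, so that the 5 values are not independent. SOX matches per kb were 0.434, 0.547, 0.485, 0.622 and 0.519, against 0.48 to 0.528 in all peaks. Matches for AP1 were 0.496, 0.273, 0.485, 0.335 and 0.207 per kb (0.355 to 0.41 in all peaks) and for GATA 0.186, 0.342, 0.441, 0.335 and 0.311 (0.409 to 0.472). The lowest of these values rest on 2 or 3 matches.

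Other keratins and keratin partners were counted in the same way. Of 17 keratins of epidermis and other lining epithelia, 13, 13, 10, 10 and 7 had an H3K27ac peak in the window from D0 to W12, and 5, 4, 4, 3 and 2 had one over the start site. The median share went from 5.24% at D0 to 2.76% at W2 and 0 at W12. Of 21 keratins of hair shaft and inner root sheath found in the annotation, 13, 10, 11, 4 and 7 had a peak and none had one over the start site at any time. Of 12 genes for desmosome, plakin and other keratin partner proteins, 11, 11, 10, 11 and 10 had a peak. The basal keratins *Krt5* and *Krt14*, whose proteins build the filaments of EpdSCs, stayed well covered, at 37.6, 33.2, 48.7, 38.5 and 27.6% for *Krt5* and 33.5, 32.6, 34.3, 31.8 and 28.1% for *Krt14*.

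By the distance between courses of H3K27ac share over the 5 lists (Euclidean, in percentage points), each gene was set against those 38 keratins. *Krt17* was nearest to *Krt14* (17.3) and then to *Krt5* (22.4). *Krt6a* had no close match, with *Krt72* nearest at 26.1. *Krt19* was nearest to *Krt15* (6.06) and *Krt79* to *Krt78* (0.982), in both cases with windows that overlap. *Krt16* was nearest to *Krt72* (19.2), *Krt6b* and *Krt75* to *Krt12* (4.32 and 3.94), *Krt7* to *Krt32* (1.77) and *Krt8* to *Krt25* (1.63), and *Krt18* was tied with 8 keratins that had no peak at any time.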

How the data were processed

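H3K4me1 and H3K27ac were measured by MINT-ChIP in EpdSCs sorted from skin (D0 to W12), and H3K4me1 in cultured EpdSCs. Per the labels and the study's methods, the authors demultiplexed reads by barcode, trimmed them with Skewer, aligned them with Bowtie2 (v2.2.9) to mm10 and merged replicates with SAMtools. They called H3K27ac peaks with MACS2 (v2.1.1) and skin H3K4me1 domains with epic2. The 4 culture lists have the MACS2 broad layout. Caller settings and control tracks are not given in the sources used here. The labels and the methods differ on read length.

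Each deposited list gives an interval with a whole-number score, and the MACS2 lists also give fold enrichment over background (a ratio), −log10 of the p-value and −log10 of the q-value as the authors' caller wrote them, with the summit offset for H3K27ac. The deposited epic2 domains carry a p-value, the largest being 0.0496. The largest q-value was 0.0498 for H3K27ac and 0.0982 in culture. Read counts per library were not used here, so pileup was recomputed from the fold, which MACS2 writes as the pileup plus 1 over the background plus 1 (tolerance 0.002). The W12 list comes from libraries whose labels also name a W2 replicate, separated by barcode. The 14 barcode files and total H3 were not analysed here.

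Windows were built from GENCODE M21 basic protein-coding genes on 21 chromosomes. Covered bases, intervals over start sites and gained or lost intervals (no overlap by 1 bp with the reference list) were counted for all 21938 genes by scripts tested on simulated data (Python v3.11.15, pandas v2.3.3, NumPy v2.4.6, matplotlib v3.10.9). Epic2 ends were taken as the last base of a 200-bp bin. D0 was the reference in skin and WT-SOX9 without DOX in culture. The 10 genes, the other keratin and cell marker lists and the rules were chosen with earlier results of these data known. The genes named were these 10, their neighbours and the keratins nearest to them in course. Alternatives were no flank, flanks of 5 and 50 kb, intervals above the median score, the midpoint rule, the nearest start site only, joining of intervals under 1000 bp apart, and 50% overlap. Effects of these on lasting gains and losses and on start-site counts were added after the data were seen. Pooled lists allow no test.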

Additional observations from a re-analysis of the deposited data

Results flagged for a closer look

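In culture, 3 of the 10 keratins moved one way with WT-SOX9 and the other way with both ΔHMG-SOX9 and ΔTA-SOX9, each against WT-SOX9 without DOX. There is 1 pooled list per condition, so the differences between variants were not tested. For *Krt6a* the H3K4me1 share of the window differed from the control by 15.71 points with WT-SOX9, by -5.734 with ΔHMG-SOX9 and by -2.049 with ΔTA-SOX9. For *Krt16* the differences were -2.613, 3.384 and 6.602 points. For *Krt75* they were 3.524, -3.763 and -2.552 points. The same split of directions was found for 4380 of 21938 genes (20%), and the 3 comparisons share the control list. The split itself depended on how intervals were assigned. For *Krt16* it was found under none of 5 other settings: all 3 differences were negative without flanks (-2.88, -2.45 and -24.3) and with intervals above the median score (-11.5, -10.9 and -10.5), and all 3 were positive with 50 kb flanks and with intervals joined, while with 5 kb flanks they were -4.55, -0.0937 and 6.31. For *Krt75* it was lost without flanks (11.2, 5.37 and 8.13) and with intervals above the median score (7.53, 0.242 and -2.33). For *Krt6a* it was lost without flanks (3.25, 1.09 and -1.14).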

How the results depend on the processing

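Counts below are numbers of the 10 genes. The median covered shares stayed within the reported range of the 10 genes, its lowest and highest values left out. Exceptions were found with intervals above the median score (H3K4me1 at W12 29.2%, culture WT-SOX9 17.0%, ΔTA-SOX9 11.6%). This range is wide, 0 to 20.2% for H3K27ac at D0, so that staying in it does not show a kept size.

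The highest fold of a window moved in 37 of 54 cases without flanks and in 53 of 77 with 50 kb flanks.

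Without flanks, gained H3K27ac peaks were found at 2 (W1), 1 (W6) and 2 (W12), gained H3K4me1 domains at 0 (W1), 1 (W2) and 1 (W6) and gained culture intervals at 3 for each variant. Lost H3K27ac peaks were at 2, 1, 1 and 3 (W1 to W12), lost domains at 0, 0, 0 and 1, and lost culture intervals at 1 (WT-SOX9), 0 (ΔHMG-SOX9) and 1 (ΔTA-SOX9). An H3K27ac peak was in 3, 2, 5, 3 and 2 gene bodies from D0 to W12, so that the median share was 0 in every list but W2. A lasting loss was found at 1 gene.

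With 5 kb flanks, gains were at 3 (H3K27ac, W12) and 1 (H3K4me1, W2). Losses were at 2 and 3 (H3K27ac, W2 and W6), 2, 1 and 0 (H3K4me1, W1 to W6) and 3 and 4 (ΔHMG-SOX9 and ΔTA-SOX9). A peak was in 5 windows at W6 and 3 at W12, where the median H3K27ac share was 0, and 2 genes had a lasting loss.

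With 50 kb flanks, gains were at 8 (H3K27ac, W2) and at 3, 6, 6 and 4 (H3K4me1, W1 to W12). Losses were at 9 and 8 (H3K27ac, W2 and W6), 8, 8, 6 and 7 (H3K4me1, W1 to W12) and 9 (ΔHMG-SOX9). Lasting gains were at 2 and lasting losses at 7.

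With the nearest start site only, gains were at 3 and 3 (H3K27ac, W1 and W2), 0 (H3K4me1, W1) and 3 (ΔHMG-SOX9), losses at 2 and 3 (H3K27ac, W2 and W6), 2 (ΔHMG-SOX9) and 4 (ΔTA-SOX9), and lasting losses at 2.

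With intervals above the median score, gains were at 3 and 3 (H3K27ac, W1 and W6), 0 and 4 (H3K4me1, W1 and W6) and 3, 3 and 1 (culture). Losses were at 2, 2, 3 and 3 (H3K27ac, W1 to W12), 2, 1 and 2 (H3K4me1, W1 to W6) and 4 (WT-SOX9). A peak was in 4 windows at D0, lasting gains were at 2 and lasting losses at 2.

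Joining intervals gave 1 gene with a gained domain at W2, 3 with a lost H3K27ac peak at W6 and 2 with a peak over the start site at W12. The 50% overlap gave 2 with a gained domain at W1. The midpoint rule moved none of these counts by more than 1.5 times. Smaller windows lower counts by construction and larger ones raise them, and the cause of other shifts was not tested. *Krt6a* kept its lasting gain and *Krt16* its lasting loss under all 8 alternatives.

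No paired analysis was possible because each list pools its replicates, and leaving out a replicate was not possible for the same reason. Depth limits the lists unequally: the weakest H3K27ac peak called had a pileup of 3 at W1 and 5 at W6, and a weaker peak was not detectable there.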
